A study of Mus musculus with 12 samples.

Results

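A set of 10 genes of cellular iron handling were followed in mouse ventricle: Slc40a1, Tfrc, Fth1, Ftl1, Hmox1, Slc11a2, Slc39a14, Ireb2, Aco1 and Cp. The 10 members were chosen by symbol, each matched 1 Ensembl ID of the count table, and they are 10 of 21959 gene IDs there and 10 of 12384 genes tested. Poly-A RNA came from the ventricles of 6 Vps13c-cKO mice, in which Vps13c was knocked out in the heart, and of 6 WT mice. All 12 animals were males aged 7 weeks on chow diet. The VPS13C protein moves lipids where organelles touch. Neither the driver of the deletion nor whether WT mice carried it is stated in the sources used here. Each sample is 1 mouse per the labels, with no stated batch, litter or collection time.

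Iron enters most cells as transferrin bound to the transferrin receptor (Tfrc) and is carried out of endosomes by the divalent metal transporter encoded by Slc11a2, while Slc39a14 (ZIP14) takes up iron that is not bound to transferrin. Surplus iron is kept inside ferritin, a shell of heavy (Fth1) and light (Ftl1) chains, and leaves the cell through ferroportin (Slc40a1) with the help of the ferroxidase ceruloplasmin (Cp). Heme oxygenase 1 (Hmox1) frees iron from heme. The iron regulatory proteins IRP1 (Aco1) and IRP2 (Ireb2) bind hairpins called iron-responsive elements when iron is scarce, which blocks translation of ferritin and ferroportin mRNA and stabilises Tfrc mRNA. In heart muscle these proteins balance the iron needed for respiration against its toxicity.

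The hairpins are shown because they tie 4 of the 10 members to the iron regulatory proteins. The coding strand of each untranslated region was searched for CAGTG followed by A, C or T, as the loop of a stem of 5 pairs (G with T allowed) below which a C is left unpaired. This found 7 elements in those 4 members, while 0.562% of 21901 protein-coding genes held a match. In the listing, capitals mark the loop. Sequences are from GENCODE M21 transcripts with positions of the build GRCm38, which is not the build of the counts.
Slc40a1, 5′ untranslated region, chr1:45925465-45925493, minus strand: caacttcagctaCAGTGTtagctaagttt
Fth1, 5′ untranslated region, chr19:9982732-9982760, plus strand: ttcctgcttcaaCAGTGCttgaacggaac
Ftl1, 5′ untranslated region, chr7:45459779-45459807, minus strand: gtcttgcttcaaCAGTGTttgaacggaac
Tfrc, 3′ untranslated region, chr16:32631219-32631247, plus strand: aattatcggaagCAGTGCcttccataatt
Tfrc, 3′ untranslated region, chr16:32631598-32631626, plus strand: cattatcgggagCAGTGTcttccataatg
Tfrc, 3′ untranslated region, chr16:32631663-32631691, plus strand: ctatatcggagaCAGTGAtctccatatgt
Tfrc, 3′ untranslated region, chr16:32631710-32631738, plus strand: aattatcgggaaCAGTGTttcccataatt
Both ferritin chains and ferroportin carry 1 element in front of the coding sequence, where binding blocks translation. In Tfrc the search matched 4 behind it, where binding protects the mRNA, and elements outside this pattern would be missed. The search found no match in the other members, which says only that these letters and this pairing are not there.

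Libraries held 12484523 to 14188716 gene counts in Vps13c-cKO and 13348018 to 15562942 in WT mice. Vps13c itself was at 18.2 ± 1.58 CPM (TMM-scaled counts per 1e6 counts; SD, n = 6) in Vps13c-cKO and 61.9 ± 4.85 CPM (n = 6) in WT ventricles, with all 6 knockout mice below all 6 WT mice. Markers of cardiomyocytes summed to 48080 to 52810 CPM in Vps13c-cKO and 49940 to 54990 CPM in WT mice. One library stood apart. Vps13c-cKO mouse 1 had 3016 counts of Alb, the albumin gene of hepatocytes, against at most 11 in any other mouse. The other hepatocyte markers followed, with 301 counts of Apoa1, 212 of Ttr, 101 of Serpina1a and 233 of Fgb, against at most 1, 7, 1 and 0 in any other mouse. Liver expresses several iron genes strongly, so values without this mouse are given beside several results.

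**Figure D1:**
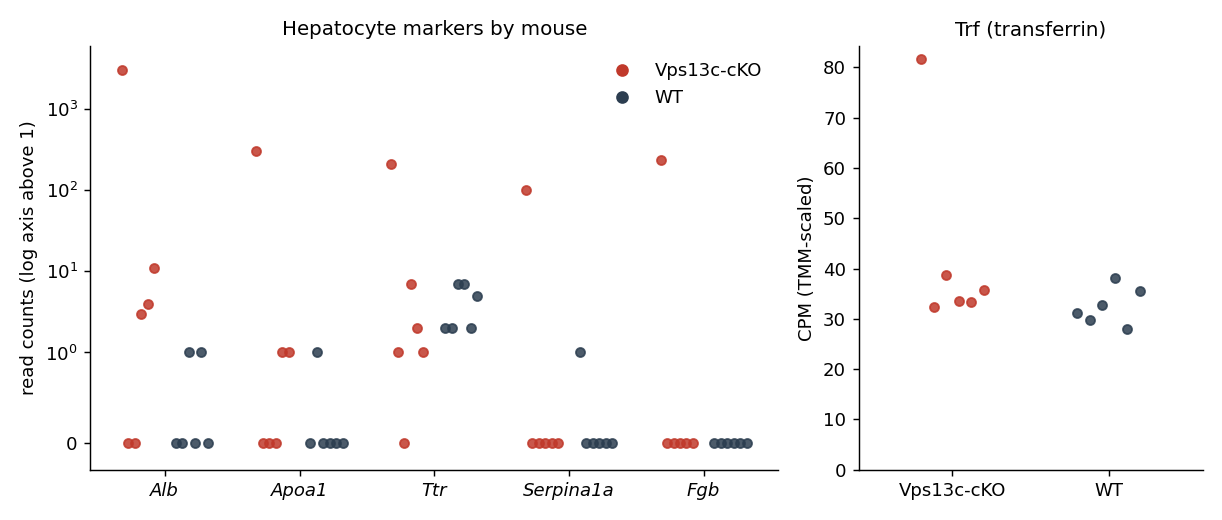
Left, read counts of 5 hepatocyte markers in each mouse (log axis above 1); right, CPM of Trf, the transferrin gene, in each mouse. Vps13c-cKO mouse 1 lies far above the other 11 mice for every marker, and its Trf level was 81.6 CPM against 28.0 to 38.7 CPM in the others.

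Across the 10 members, ferroportin mRNA was lower and heme oxygenase mRNA higher in Vps13c-cKO, and the other 8 did not pass the threshold. A gene was called at a Benjamini-Hochberg adjusted p under 0.05 over all genes tested, by the edgeR quasi-likelihood test. That made 1 member higher, where 5.65% of all tested genes were higher, and 1 lower, where 5.1% were lower. In all 2 of 10 members were called, against 10.7% of all genes tested. The median log2 fold change of the members was -0.02, and that of all tested genes 2.75e-05. The groups did not overlap for 1 member, Slc40a1, as they did not for 4.93% of all genes tested.

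**Figure D2:**
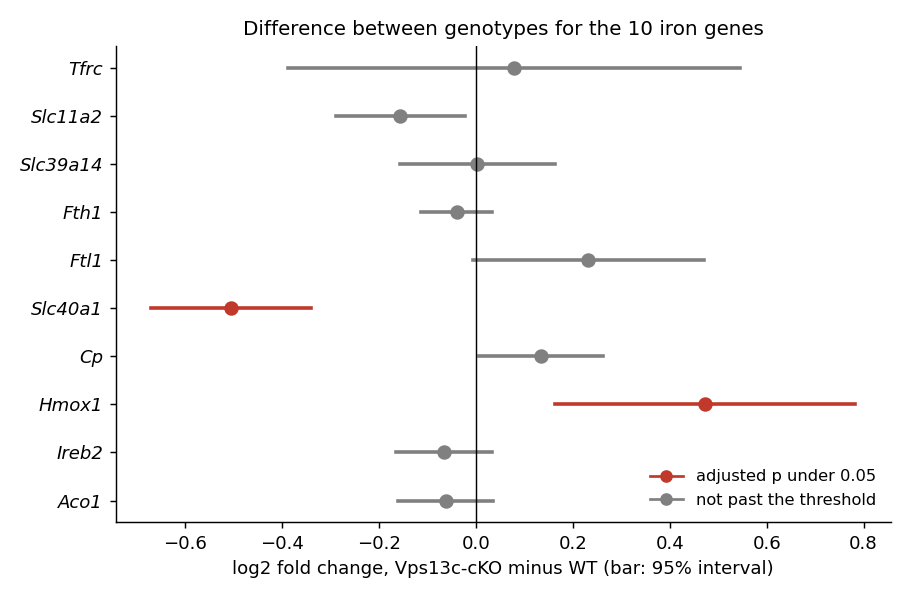
Log2 fold change (Vps13c-cKO minus WT) of each member with its 95% interval, in red where the adjusted p was under 0.05. Slc40a1 at -0.51 and Hmox1 at 0.47 stand in red, and the interval of Tfrc is the widest of the 10.

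Slc40a1 encodes ferroportin, the only known iron exporter of vertebrate cells. Its level was 20.3, 25.2, 22.9, 27.4, 28.5 and 21.8 CPM in the 6 Vps13c-cKO mice, against 32.5, 35.0, 37.1, 34.7, 36.9 and 30.8 CPM in the 6 WT mice. Every knockout ventricle was below every WT ventricle, with a gap between 28.5 and 30.8 CPM. The mean fell to 24.3 ± 3.25 CPM in Vps13c-cKO, against 34.5 ± 2.48 CPM in WT (SD, n = 6 each), which is 0.704 of the WT level by the fitted fold change. The log2 fold change was -0.51 ± 0.07 (SE; 95% interval -0.67 to -0.34; adjusted p = 9.28e-05). Vps13c-cKO mouse 1, the library with hepatocyte markers, was also the lowest for Slc40a1. Without it the log2 fold change was -0.46 ± 0.07 (adjusted p = 0.000256).

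Ferroportin is made by macrophages as well as by heart muscle cells, and in whole ventricle fewer cells of a type and less RNA per cell cannot be told apart. Macrophage markers were higher in Vps13c-cKO for 4 of 14 tested and lower for 0, and the list's summed level was 401.2 to 482.4 CPM in Vps13c-cKO and 327.2 to 459.3 CPM in WT mice, with no marker at 0. Those 4 were C1qa, C1qb, C1qc and Lyz2. Beside the counts of each marker list stand the shares of all tested genes, 5.65% called higher and 5.1% called lower. The list's median log2 fold change was 0.24. Only 1 of the 14 had a log2 fold change below 0, at -0.14 ± 0.15 (adjusted p = 0.634). This was Cd163, a marker of resident macrophages chosen here after its value was seen. The cardiomyocyte list was lower for 3 of 6 genes (Tnnt2, Tnni3 and Myl2), with a median of -0.10. Of 8 endothelial genes 1, Cldn5, was lower and 0 were higher, with a median of -0.11. The endothelial sums were 799.5 to 824.9 CPM in Vps13c-cKO and 789.2 to 920.8 CPM in WT mice. Of 9 fibroblast genes 5 were higher (Col1a1, Col1a2, Lum, Dpt and Postn) and 1 lower (Pdgfrb), with a median of 0.25. The fibroblast sums were 1108 to 1218 CPM in Vps13c-cKO and 980.1 to 1106 CPM in WT mice, without overlap. The part of these markers in the Slc40a1 result was not tested.

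Hmox1 encodes the inducible heme oxygenase. It stood at 6.44, 9.10, 8.19, 11.2, 7.30 and 5.86 CPM in the 6 Vps13c-cKO mice, against 5.56, 6.33, 5.84, 6.86, 5.41 and 4.52 CPM in the 6 WT mice. In 4 knockout mice the value lay above the highest WT value, and the groups overlapped. The means were 8.02 ± 1.95 CPM in Vps13c-cKO and 5.75 ± 0.805 CPM in WT (SD, n = 6 each). Hmox1 rose 1.39-fold, at a log2 fold change of 0.47 ± 0.14 (SE; 95% interval 0.16 to 0.78; adjusted p = 0.0309). Between 59 and 140 reads per mouse lie behind these values.

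The Hmox1 call was close to the threshold. It was lost when Vps13c-cKO mouse 4, the highest, was left out (log2 fold change 0.36, adjusted p = 0.0949). It was also lost without Vps13c-cKO mouse 2 or 3, or WT mouse 1, 3, 5 or 6, at adjusted p from 0.0512 to 0.0728, and it held without Vps13c-cKO mouse 1 (0.53, adjusted p = 0.0219). Red blood cells carry heme. The 9 erythroid markers with an ID summed to 262.8 to 763.7 CPM in Vps13c-cKO and 316.7 to 480.4 CPM in WT mice, and 0 of 6 tested passed. Vps13c-cKO mouse 4 had the most of the beta globin gene Hbb-bs, at 375 CPM, and also the most Hmox1. Vps13c-cKO mouse 2 had the least Hbb-bs, at 123 CPM, and the next highest Hmox1. Macrophages, whose markers are given above, also express Hmox1. The part of either set of markers in the Hmox1 result was not tested.

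**Figure D3:**
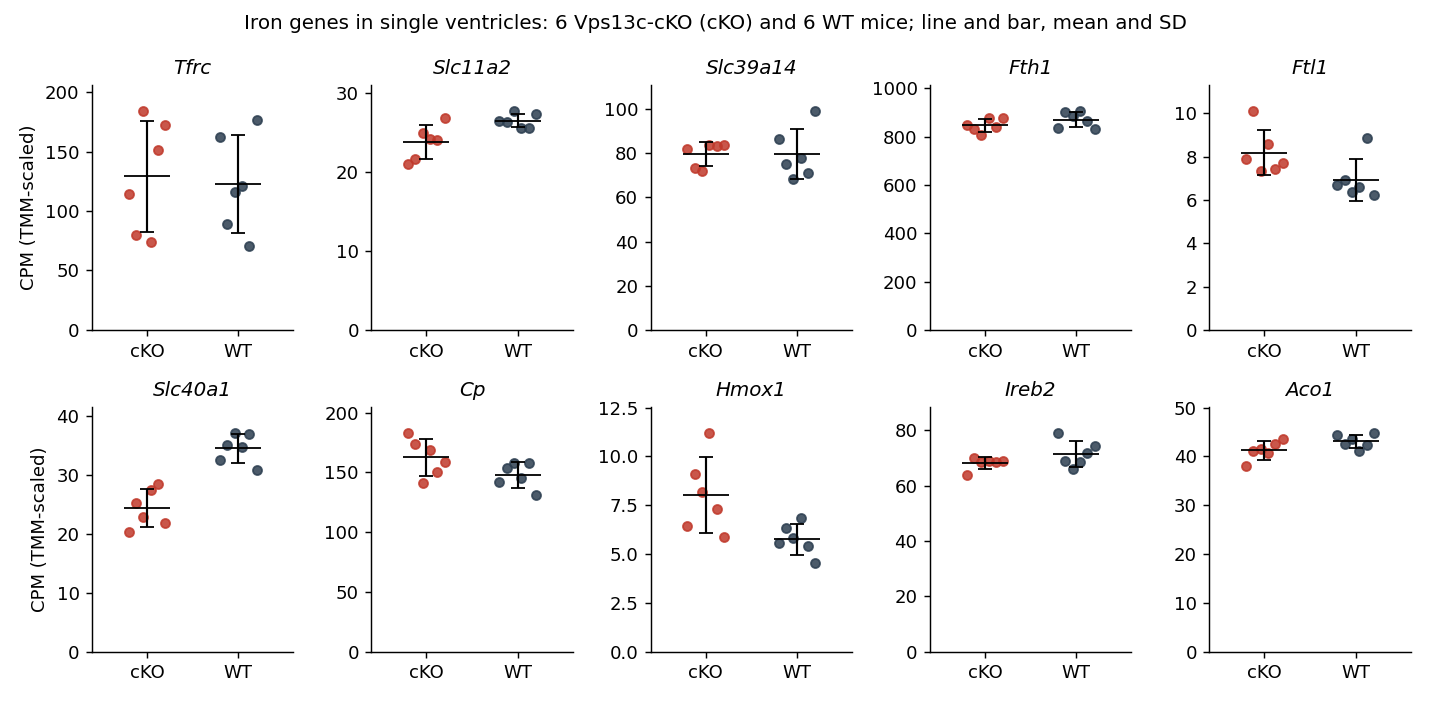
CPM of each member in each mouse (points), with mean and SD (line and bar), Vps13c-cKO on the left and WT on the right of each panel; axes start at 0. Slc40a1 is the panel in which the groups do not overlap, Fth1 the one with points closest together, and Tfrc spreads over 73.9 to 184 CPM in Vps13c-cKO and 70.8 to 177 CPM in WT mice.

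Tfrc, the main entry route, varied far more between mice than between genotypes. Vps13c-cKO mice 1 to 6 had 114, 79.7, 184, 73.9, 151 and 172 CPM, against 162, 89.2, 116, 121, 70.8 and 177 CPM in WT mice 1 to 6. Low and high mice occurred in both genotypes, over almost the same range. Means were 129 ± 47.0 CPM in Vps13c-cKO and 123 ± 41.0 CPM in WT (SD, n = 6 each), and the log2 fold change of 0.08 ± 0.21 (SE) had an adjusted p of 0.873. The 95% interval of -0.39 to 0.55 leaves room for a change in either direction. The coefficient of variation was 36.4% in Vps13c-cKO and 33.4% in WT mice, where counting alone would give 2.53% in Vps13c-cKO and 2.49% in WT. Among 9544 tested genes with a mean of at least 5 CPM, 99.8% varied less than Tfrc in Vps13c-cKO and 99.7% in WT, and the median gene had 7.05% in Vps13c-cKO and 7.51% in WT. In WT the mouse with the least Tfrc had the deepest library (15562942 counts) and that with the most had the shallowest (13348018). In Vps13c-cKO the mouse with the least had 12703410 counts and that with the most 13987115.

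The remaining import genes did not pass the threshold. Slc11a2, the endosomal transporter, was at 21, 21.6, 24.9, 24.2, 24.1 and 26.8 CPM in Vps13c-cKO, against 26.5, 26.3, 27.7, 25.6, 25.6 and 27.3 CPM in WT mice. In 5 of the 6 knockout mice the level was below every WT mouse, and mouse 6 lay among the WT mice. The log2 fold change was -0.16 ± 0.06 (SE; 95% interval -0.29 to -0.02; adjusted p = 0.106), and without Vps13c-cKO mouse 6 it was -0.20 (adjusted p = 0.0372), past the threshold. Without mouse 1, the lowest, it was -0.12 (adjusted p = 0.229). Exons of Slc11a2 share 402 bases with Gm5475 on the opposite strand, and reads of the pair cannot be told apart if counting ignored strand. Slc39a14 averaged 79.7 ± 5.61 CPM in Vps13c-cKO and 79.5 ± 11.4 CPM in WT (SD, n = 6 each). Its log2 fold change was 0.00 ± 0.07 (SE; 95% interval -0.16 to 0.16; adjusted p = 0.988), the smallest of the 10.

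Storage genes gave no call either. Fth1, the ferritin chain that oxidises iron on its way in, was steady between mice at 806 to 878 CPM in Vps13c-cKO and 831 to 905 CPM in WT. Its medians were 844 CPM in Vps13c-cKO and 873 CPM in WT, and the coefficient of variation 3.28% in Vps13c-cKO and 3.70% in WT. The log2 fold change of -0.04 ± 0.03 (SE; adjusted p = 0.509) had a 95% interval of -0.11 to 0.03. Ftl1, the light chain, stood at 7.87, 10.1, 7.34, 8.57, 7.45 and 7.70 CPM in Vps13c-cKO, against 6.67, 6.93, 6.35, 6.58, 8.85 and 6.21 CPM in WT mice. In 5 of the 6 WT mice the level was below every knockout mouse, and WT mouse 5 lay among the knockouts. Its log2 fold change was 0.23 ± 0.11 (SE; 95% interval -0.01 to 0.47; adjusted p = 0.188). The Ftl1 level is uncertain, since the annotation names 2 pseudogene copies of it and reads that match several copies may be lost in counting. The copy with a row in the table, Ftl1-ps1, had 0 to 2 counts per mouse.

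Cp encodes ceruloplasmin, whose membrane-anchored form helps ferroportin release iron. It was at 183, 174, 141, 169, 150 and 159 CPM in Vps13c-cKO, against 142, 154, 158, 145, 158 and 131 CPM in WT mice. In 4 knockout mice the level was above every WT mouse, and mouse 1 with its hepatocyte markers was the highest. The log2 fold change was 0.13 ± 0.06 (SE; 95% interval 0.01 to 0.26; adjusted p = 0.148). Without mouse 1 it was 0.10 ± 0.06 (adjusted p = 0.324), and without Vps13c-cKO mouse 3, the lowest, 0.17 (adjusted p = 0.0490), just past the threshold. Secreted Cp is a liver product, and the part of the hepatocyte markers in the level of mouse 1 was not tested. Exons of Cp share 108 bases with Hps3 on the opposite strand.

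The genes of the iron sensors differed little between genotypes. Ireb2 (IRP2) averaged 68.1 ± 2.13 CPM in Vps13c-cKO and 71.4 ± 4.71 CPM in WT (SD, n = 6 each), the log2 fold change being -0.07 ± 0.04 (SE; 95% interval -0.17 to 0.03; adjusted p = 0.392). Aco1 (IRP1), which doubles as a cytosolic aconitase, averaged 41.2 ± 1.90 CPM in Vps13c-cKO and 43.1 ± 1.38 CPM in WT, at -0.06 ± 0.04 (95% interval -0.16 to 0.03; adjusted p = 0.421). Vps13c-cKO mouse 1 was the lowest of all 12 mice for both, at 63.9 CPM of Ireb2 and 38.0 CPM of Aco1. Without it the log2 fold changes were -0.05 (adjusted p = 0.580) for Ireb2 and -0.04 (adjusted p = 0.650) for Aco1. Ireb2 shares chromosome 9 with Vps13c, with 118 tested genes between them, of which 9 were called, where 10.7% of all tested genes were. These are mRNA levels, and the binding of either protein to the hairpins shown above was not measured.

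Levels of different genes can be compared only per length. On the TPM scale, with the longest protein-coding transcript as length, Fth1 was far above the rest at 1120 ± 33.0 TPM in Vps13c-cKO and 1160 ± 46.5 TPM in WT (SD, n = 6 each). Cp came next at 70.6 ± 6.87 TPM in Vps13c-cKO and 64.7 ± 5.60 TPM in WT, followed by Tfrc at 29.3 to 75.2 TPM in Vps13c-cKO and 29.3 to 70.6 TPM in WT mice. Then came Slc39a14 (32.0 TPM in Vps13c-cKO, 32.2 in WT), Ireb2 (23.4 TPM in Vps13c-cKO, 24.7 in WT) and Aco1 (21.3 TPM in Vps13c-cKO, 22.4 in WT). Slc40a1 ranked eighth in Vps13c-cKO at 14.3 ± 1.76 TPM and seventh in WT at 20.4 ± 1.71 TPM, changing places with Ftl1 at 16.7 ± 2.15 TPM in Vps13c-cKO and 14.3 ± 2.16 TPM in WT. Slc11a2 (10.7 TPM in Vps13c-cKO, 12.0 in WT) and Hmox1 (10.1 TPM in Vps13c-cKO, 7.31 in WT) were at the foot. Neighbours in this order overlapped between mice except Fth1 with Cp and Slc39a14 with Ireb2 in both genotypes, and Slc11a2 with Hmox1 in WT. With all annotated exons joined as length, Fth1 still came first, at 581 TPM in Vps13c-cKO and 606 TPM in WT, while Slc40a1 was at 6.44 TPM in Vps13c-cKO and 9.27 TPM in WT, rank 10 in Vps13c-cKO and 9 in WT. Ftl1 then ranked above it in both genotypes, at 14.5 TPM in Vps13c-cKO and 12.5 TPM in WT, so the exchange of places holds only with the longest transcript as length. With either length the level and rank of Ftl1 are uncertain, since reads that match its pseudogene copies may be lost in counting.

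**Figure D4:**
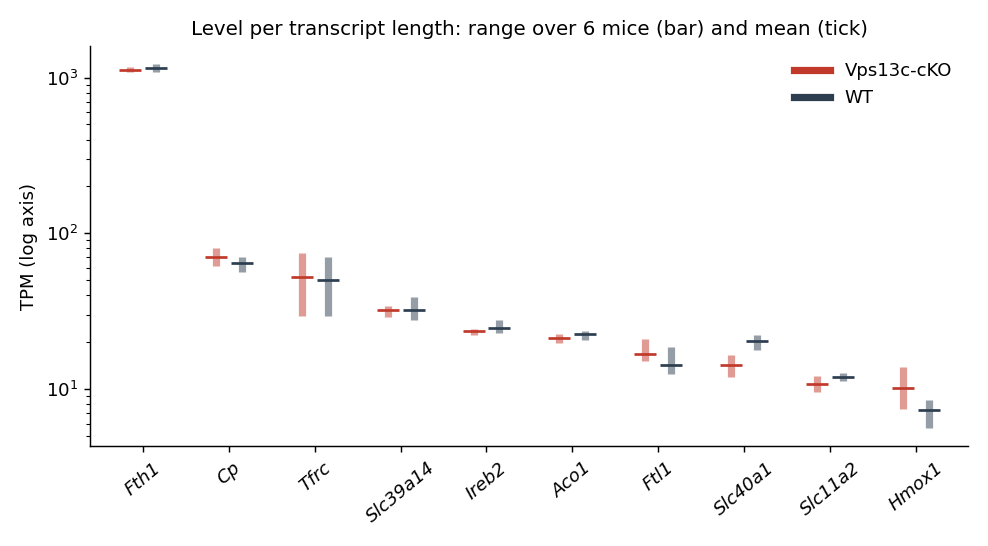
TPM (log axis) of the members by the longest protein-coding transcript, as the range over 6 mice (bar) and mean (tick), Vps13c-cKO left of WT for each gene. Fth1 lies far above the other 9, at 1080 to 1170 TPM in Vps13c-cKO and 1090 to 1220 TPM in WT mice, and Slc40a1 and Ftl1 are in opposite order in the 2 genotypes with this length, but not with all exons joined. The level of Ftl1 is uncertain, since reads that match several copies may be lost in counting.

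Members were also compared with each other across mice, after each genotype's mean was taken off the log2(CPM + 1) values. Among 45 pairs, the strongest relation was that Ftl1 was low where Tfrc was high, with Pearson's r = -0.815 (permutation p = 0.00117, two-sided, 100000 permutations within genotypes) and Spearman's rho = -0.829 (permutation p = 0.00404) over 12 mice. Adjusted over the 45 pairs, the p-values were 0.0526 and 0.15, so the relation did not pass, and neither did any other pair (0 of 45 by r and 0 by rho). Within genotypes r was -0.828 in Vps13c-cKO and -0.808 in WT mice (n = 6 each). Leaving out the 2 mice farthest from the median of Tfrc gave -0.778. Ftl1 rests on 81 to 139 counts per mouse. Its coefficient of variation was 12.8% in Vps13c-cKO and 14.0% in WT, where counting alone would give 9.60% and 10.2%. Cp also ran against Tfrc, with r = -0.777 (permutation p = 0.00781, adjusted p = 0.117) and rho = -0.771 (permutation p = 0.01, adjusted p = 0.15), r = -0.736 in Vps13c-cKO and -0.842 in WT, and -0.796 without the 2 farthest mice. Slc11a2 and Aco1 rose and fell together, with r = 0.796 (permutation p = 0.00544, adjusted p = 0.117) and rho = 0.771 (permutation p = 0.00978, adjusted p = 0.15). Their r was 0.838 in Vps13c-cKO and 0.760 in WT, and 0.495 without the 2 mice farthest from the median of Slc11a2, so it rests in part on those. Without Vps13c-cKO mouse 1, the lowest for both genes, r was 0.677.

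**Figure D5:**
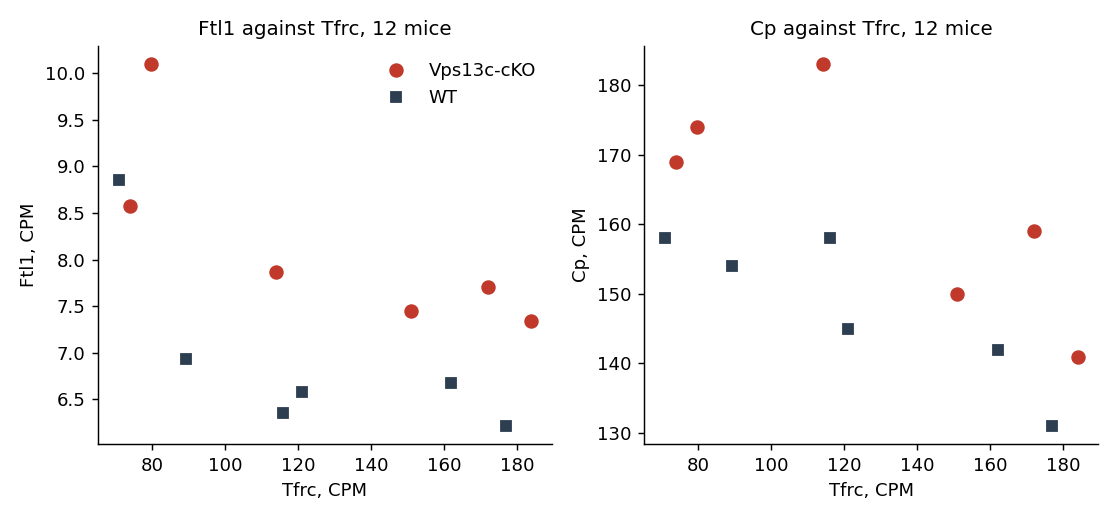
Ftl1 (left) and Cp (right) against Tfrc, all in CPM, 1 point per mouse (circles Vps13c-cKO, squares WT). In each genotype the mouse with the most Tfrc, 184 CPM in Vps13c-cKO and 177 CPM in WT, has the lowest Ftl1 and the lowest Cp.

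Genes whose deviations from the genotype means were most like those of the called members were looked up among 12374 tested genes, as a description of 12 mice. For Slc40a1 they were Kif16b (r = 0.875), Exoc2 (0.856) and Gas8 (0.846), and none of these was called between genotypes (adjusted p = 0.274, 0.148 and 0.749). For Hmox1 they were Gm49359 (r = 0.932), Gtpbp4 (0.895) and Tysnd1 (0.879), with adjusted p = 0.664, 0.126 and 0.840 between genotypes. They are the highest of very many correlations and carry no test.

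Beyond the members, 5 lists of iron genes held 76 others, of which 64 were tested. Of these 3 were higher and 2 lower, 7.81% against the background of 10.7%, and their median log2 fold change was -0.01. The number called was 3 without Vps13c-cKO mouse 1 and 8 without WT mouse 4. On the list of the transferrin cycle and other entry routes 1 of 10 tested genes was lower and 0 higher. This was the metalloreductase gene Steap4, at 41.2 ± 2.97 CPM in Vps13c-cKO and 50.6 ± 3.80 CPM in WT (log2 fold change -0.29 ± 0.06, adjusted p = 0.00136). Trf, which encodes transferrin, was at 81.6 CPM in Vps13c-cKO mouse 1 and 32.4 to 38.7 CPM in the other 5 knockout mice, against 28.0 to 38.1 CPM in WT mice. Its log2 fold change of 0.39 ± 0.17 (adjusted p = 0.173) became 0.10 ± 0.07 (adjusted p = 0.466) without that mouse.

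The heme list had 2 of 18 higher and 0 lower, where 5.65% of all tested genes were higher and 5.1% lower. Cpox, which makes protoporphyrinogen, rose to 69.9 ± 3.40 CPM in Vps13c-cKO, against 55.5 ± 5.37 CPM in WT (log2 fold change 0.33 ± 0.06, adjusted p = 0.000326). Lrp1, an endocytic receptor that takes up heme bound to hemopexin among many ligands, rose to 166 ± 8.65 CPM in Vps13c-cKO, against 135 ± 6.43 CPM in WT (0.30 ± 0.04, adjusted p = 5.21e-05). For both genes all 6 knockout mice lay above all 6 WT mice, and the groups did not overlap for 4.93% of all tested genes. Alas1, the first enzyme of heme synthesis outside red cells, was at -0.06 ± 0.09 (adjusted p = 0.749). Hpx and Hp, which bind free heme and hemoglobin, were below the filter, with 105 and 87 counts in Vps13c-cKO mouse 1 and at most 4 and 9 in any other mouse.

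Of 19 tested genes of mitochondrial iron and iron-sulfur cluster assembly, 1 was higher and 0 lower. The shares of all tested genes were 5.65% higher and 5.1% lower. Iscu, the scaffold on which clusters are built, was at 58.4 ± 3.92 CPM in Vps13c-cKO and 52.1 ± 1.33 CPM in WT (log2 fold change 0.17 ± 0.05, adjusted p = 0.0205). All 6 knockout mice lay above all WT mice, and 4.93% of all tested genes had groups apart in 1 direction or the other. The Iscu call was lost without Vps13c-cKO mouse 1 (0.15, adjusted p = 0.0504) or mouse 2 (0.13, adjusted p = 0.0567), at nearby log2 fold changes. The mitochondrial importer gene Slc25a37 was at 0.02 ± 0.06 (adjusted p = 0.873). On the hepcidin list 1 of 10 was lower and 0 higher, beside the same shares of all tested genes. This was Hjv, which encodes hemojuvelin, a co-receptor for bone morphogenetic proteins made by muscle and liver, at 177 ± 13.8 CPM in Vps13c-cKO and 201 ± 12.1 CPM in WT. Its log2 fold change was -0.18 ± 0.05 (adjusted p = 0.0217). The call was lost without Vps13c-cKO mouse 1 (-0.15, adjusted p = 0.0581), Vps13c-cKO mouse 2 (-0.15, adjusted p = 0.0573) or WT mouse 5 (-0.15, adjusted p = 0.0550). Hepcidin itself (Hamp) had 11 counts in all Vps13c-cKO mice, 9 of them in mouse 1, and 6 in all WT mice.

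None of 7 tested genes of iron storage, chaperones and sensing was called, where 10.7% of all tested genes were. Ncoa4, the receptor that brings ferritin to lysosomes, was at -0.06 ± 0.05 (adjusted p = 0.522). Of 8 mRNAs known for iron-responsive elements, 5 were members (Slc11a2 too, whose element the search did not match). Of the 8, 1 was lower (Slc40a1) and 0 higher, where 5.1% of all tested genes were lower and 5.65% higher. The median log2 fold change of the 8 was -0.05.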

How the data were processed

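What the authors deposited is a table of whole-number read counts, 1 column per mouse, per the file headers not normalized. Per the submitters' processing notes, the tools were HTSeq 0.9.1, HISAT2 2.1.0 and fastp 0.22.0, on build GRCm39. The annotation release and strand setting were not stated there. Per the labels' protocols the libraries were amplified by PCR and no molecular identifiers are mentioned, so counts are reads, not molecules. Names, lengths and hairpins came from GENCODE M21 (GRCm38), which named 21851 of 21959 IDs. Genes passing filterByExpr (12384) entered the quasi-likelihood test of edgeR 4.0.16 (R 4.3.3), TMM-scaled, without covariates and with Benjamini-Hochberg adjustment. Intervals use 10 residual degrees of freedom. Chi-square values per gene between replicates of a group were 3.11 to 5.62, above counting noise.

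Members and lists were chosen with earlier results of these data known. Named are all members, Vps13c, Trf, Ncoa4, Hamp, Slc25a37, up to 6 called genes of each other iron list, leading markers and the 3 genes most like each called member; a further gene of that rule is not reported here. Alas1, Hpx, Hp, Hbb-bs, C1qa and the NRF2 targets in the closing section were chosen after their values were seen. Alternatives were other scalings (upper-quartile, DESeq2 size factors, mitochondrially encoded genes left out), filters (none, or a mean of at least 5 CPM), tools (limma-voom, limma 3.58.1, and DESeq2 1.42.0), a replicate block, and each mouse left out.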

Additional observations from a re-analysis of the deposited data

Results flagged for a closer look

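Among 46 groups of 6 mice, from the members and the other named genes, 3 held a mouse set apart from the rest by more than Dixon's 95% limit; chance flags about 1 in 20 groups. Trf was at 81.6 CPM in Vps13c-cKO mouse 1, against 32.4 to 38.7 CPM in the other 5 knockout mice. Hepatocyte markers were high in the same library, and their part in this value was not tested. Ireb2 was at 63.9 CPM in Vps13c-cKO mouse 1, against 68.5 to 69.9 CPM in the others. Ftl1 was at 8.85 CPM in WT mouse 5, against 6.21 to 6.93 CPM in the other WT mice, and that mouse had the lowest Tfrc of its genotype.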

How the results depend on the processing

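The called members kept their direction under all 20 alternatives. Slc40a1 stayed past the threshold in each, at log2 fold changes of -0.56 to -0.46, and Hmox1 in 13. Leaving out each mouse gave 0.36 to 0.55 for Hmox1 (5 of 12 past the threshold), 0.10 to 0.17 for Cp (1 of 12), and -0.20 to -0.12 for Slc11a2 (1 of 12). Members called then numbered 1 to 3, other iron genes called 3 to 8 and all genes called 1065 to 1397, against 2, 5 and 1331. Other iron genes called numbered 8 without a filter. Tfrc changed sign in 3 alternatives and Slc39a14 in 10, without passing in any. The replicate number as a block gave 1312 genes called and 2 members, with Hmox1 at 0.47 ± 0.10 (SE; adjusted p = 0.00544). Of 6 same-numbered pairs 1 had a correlation of deviations over 0.1 (range -0.05 to 0.14). In addition 1 of 6 knockout mice was most like the WT mouse of its number. The labels state no pairing, and these correlations cannot exclude a litter or collection shared by number. Under the block Gsr moved to an adjusted p of 0.0502. Depth limits Hmox1 and Ftl1 most, where counting alone gives a coefficient of variation of 9.60% to 11.2%.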

Other observations

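Heme oxygenase is one of the genes that can be switched on by NRF2, the regulator of the antioxidant response. The part of NRF2 in the Hmox1 result was not tested, and the targets named here were chosen after their values were seen. On a list of other NRF2 targets 3 of 9 tested were higher in the knockout and 0 lower. Of all tested genes 5.65% were called higher and 5.1% lower. The list's median log2 fold change was 0.20, with Me1 at 0.01 (adjusted p = 0.903) and G6pdx at -0.05 (adjusted p = 0.843) among the 6 not called. It was chosen with earlier results of these data known and holds no member. So it leaves out Slc40a1, which was lower, and Fth1 (-0.04, adjusted p = 0.509) and Ftl1 (0.23, adjusted p = 0.188), which were not called. Srxn1, which restores oxidised peroxiredoxins, was at 21 ± 1.85 CPM in Vps13c-cKO and 16.5 ± 2.08 CPM in WT (SD, n = 6 each; log2 fold change 0.35 ± 0.08 SE, adjusted p = 0.00678). Gsr, which regenerates glutathione, was at 22.5 ± 1.07 CPM in Vps13c-cKO and 19.4 ± 1.59 CPM in WT, with no overlap between mice (0.22 ± 0.06, adjusted p = 0.0267). Groups did not overlap for 4.93% of all tested genes. The quinone reductase gene Nqo1 was at 48.5 ± 1.84 CPM in Vps13c-cKO and 42.1 ± 4.95 CPM in WT (0.20 ± 0.06, adjusted p = 0.0403). The calls of Gsr and Nqo1 were lost without Vps13c-cKO mouse 1 at log2 fold changes that hardly moved (Gsr 0.21, adjusted p = 0.0563, and Nqo1 0.21, adjusted p = 0.0594) and in 4 and 8 of the other 11 fits that left out a mouse.

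Of 12374 tested genes that are no member, Alas1 was the one most like Tfrc across mice after the genotype means were taken off, a pair singled out after the values were seen. Vps13c-cKO mice 1 to 6 had 159, 130, 160, 130, 168 and 182 CPM of Alas1, against 190, 148, 138, 167, 131 and 197 CPM in WT mice 1 to 6. The mouse with the least Tfrc in WT also had the least Alas1, and in both genotypes the highest Alas1 fell in a mouse with 172 CPM or more of Tfrc. As a description, r was 0.896 over 12 mice, 0.911 in Vps13c-cKO and 0.907 in WT mice, and 0.841 without the 2 mice farthest from the median of Tfrc.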
